A study of Homo sapiens with 18 samples.

Results

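Versican, lumican and 7 other proteoglycan genes were followed in an EGFR-mutant lung cancer line and its 2 erlotinib-resistant sublines. The members were every array probe annotated to VCAN, LUM, DCN, BGN, SDC1, SDC2, SDC4, GPC1 or HSPG2, which gave 15 of the 48803 probes and 9 of the 18849 named genes. Of these, 9 probes of 8 genes were above background on at least 3 of the 18 arrays and were tested among 19931 such probes. SDC2 had no tested probe, and 3 probes of DCN and 2 of SDC1 were also too dim to test. The genes were selected on earlier results from these arrays. For VCAN and LUM those results were differences between the lines in DMSO, and which values chose the other genes is not recorded. Differences between lines in DMSO are therefore given as a description with no test. Tests are given for lines compared on the erlotinib-treated arrays and for the change under erlotinib. The former repeat a contrast of the same lines in other arrays and the latter uses the DMSO arrays, so neither is independent of the choice of genes.

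HCC827 is the parental line and comes from a non-small cell lung cancer; ER3 and T15-2 are the sublines. The labels used here do not say how the sublines were made or whether each is a single clone. All cultures were starved overnight and then received erlotinib, an inhibitor of the EGFR kinase, at 1 µM for 12 h, or the solvent DMSO for the same time. The 6 groups were HCC827, ER3 and T15-2 in DMSO and the same 3 lines in erlotinib, with 3 samples each on 1 Illumina BeadChip array per sample. The labels do not give separate cultures for the 3 samples, so p-values measure only the spread between these samples, which may be technical. RNA of whole cultures was measured, so fewer expressing cells and less RNA per cell cannot be told apart.

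Proteoglycans are core proteins that carry long sulfated sugar chains, the glycosaminoglycans. Versican is a large chondroitin sulfate proteoglycan that binds hyaluronan in the matrix, while lumican, decorin and biglycan are small leucine-rich proteoglycans that bind collagen fibrils and are known mainly as products of connective tissue cells. Syndecans and glypicans hold heparan sulfate at the cell surface, where it binds growth factors, and perlecan, the product of HSPG2, lies in basement membranes.

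On each array 15698 to 17869 probes exceeded background (detection p-value below 0.05), and arrays of a group correlated between 0.990 and 0.996. The 8 epithelial marker genes measured were above background on all arrays of HCC827 and ER3; in T15-2, ESRP1 was above it on 0 of 3 DMSO arrays and 1 of 3 erlotinib arrays, and the other 7 on all. Of 4 lung markers, NKX2-1 and NAPSA were above background on 18 of 18 arrays, SFTPB on 13 and SFTPC on 9. All 4 were called lower in each subline than in HCC827 under erlotinib, with list medians of -1.22 log2 units in ER3 and -1.33 in T15-2. Of 9 fibroblast markers, COL1A2, COL3A1, PDGFRB and THY1 were above background on none of the 18 arrays, while PDGFRA was above it on all 18. Of the endothelial markers, CDH5 and CLDN5 were above background on 0 arrays, PECAM1 on 18 and VWF on 9, including all 6 of HCC827. Of the leukocyte markers, PTPRC was above it on 0 arrays, CD3E on 2 and CD14 on 17.

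VCAN and BGN were both lower in both sublines than in HCC827, as described below, and the 250 bases before their RefSeq start sites are shown for that reason (assembly GRCh38.p14, plus strand for both genes). VCAN lies at chr5:83471494-83471743 and BGN at chrX:153494730-153494979. Capitals mark the GC box GGGCGG on either strand.
VCAN: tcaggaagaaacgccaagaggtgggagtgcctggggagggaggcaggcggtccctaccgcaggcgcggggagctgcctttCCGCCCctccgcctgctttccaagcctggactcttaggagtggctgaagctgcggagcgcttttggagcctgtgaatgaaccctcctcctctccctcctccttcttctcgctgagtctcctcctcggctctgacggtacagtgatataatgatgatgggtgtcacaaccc
BGN: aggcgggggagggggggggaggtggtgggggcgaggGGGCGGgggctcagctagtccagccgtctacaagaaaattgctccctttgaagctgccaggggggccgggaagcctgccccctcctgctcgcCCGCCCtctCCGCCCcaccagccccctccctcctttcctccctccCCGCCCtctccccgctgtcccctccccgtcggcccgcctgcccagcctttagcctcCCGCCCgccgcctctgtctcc
The VCAN stretch held 1 GC box and the BGN stretch 5, and 42.6% of 35116 promoters of this length held at least 1. Searches of both strands for the TATA box TATAAA (in 10.7% of promoters), the AP-1 motif TGANTCA (6.57%), the E-box CACCTG (17.5%) and the TCF/LEF motif CTTTGAT (2.26%) found no match in either stretch. The VCAN stretch had 12 CpG dinucleotides and a GC content of 60.8%, and the BGN stretch had 16 and 74.0%, against medians of 11 and 58.0% over all promoters. Promoters of 6 of the 9 genes were in the RefSeq table used, and each held at least 1 GC box. SDC4, also called lower in both sublines under erlotinib but not shown, held 8. HSPG2, which was called in no comparison of lines, held 8 as well.

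Versican RNA was above background in HCC827 and in neither subline. Levels are given per array on a log2 scale after background correction and quantile normalization. The VCAN probe (ILMN_1687301) read 8.32, 8.81 and 8.37 in HCC827 with DMSO and 9.01, 8.89 and 8.86 with erlotinib. ER3 read 4.46, 4.52 and 4.49 with DMSO and 4.54, 4.56 and 4.45 with erlotinib, and T15-2 read 4.63, 4.67 and 4.46, then 4.46, 4.58 and 4.68. All 6 HCC827 arrays were above background and 0 of the 12 subline arrays were, so the probe passed the filter through HCC827 alone. Uncorrected signals ran from 360 to 553 in HCC827 and from 47.9 to 60.1 in the sublines, and the ranges did not overlap.

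Because the sublines had no array above background, the difference from HCC827 is a bound: the HCC827 mean was set against the higher, per array, of the probe's own value and the lowest value above background. In the DMSO arrays, which entered the choice of the gene, the VCAN level of ER3 was at least 12.1-fold lower and that of T15-2 at least 12.4-fold lower. Under erlotinib the ER3 level was at least 16.7-fold lower, with measured means of 4.52 against 8.92, and that of T15-2 at least 16.8-fold lower. These bounds hold on background-corrected values. Without background correction the log2 differences were -3.31 in ER3 and -3.25 in T15-2, which are smaller folds. No p is given, because the probe was tested only where HCC827 was high and had been chosen for this difference. The sublines were both below background, and no difference between them can be read. Of the fibroblast markers, COL1A1 was likewise above background on all 6 HCC827 arrays and on 0 subline arrays, and the summed signal of the 9 ran from 494 to 564 over all arrays. The 4 lung markers were also lower in both sublines, with summed signals of 3004 to 3391 in HCC827, 1531 to 1758 in ER3 and 1605 to 1692 in T15-2 under erlotinib. The part of such markers in the VCAN and BGN differences was not tested.

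Lumican RNA was high in ER3 by the brighter of its 2 probes. LUM probe 1 (ILMN_1790529) read 9.37, 9.49 and 9.31 in ER3 with DMSO and 9.77, 9.34 and 9.30 with erlotinib. HCC827 read 5.54, 5.46 and 5.44, then 4.95, 5.14 and 5.01, and T15-2 read 5.63, 5.87 and 5.52, then 5.78, 5.79 and 5.58. The probe was above background on all 18 arrays, and the 6 ER3 arrays lay apart from the 12 others. In DMSO, ER3 was 3.90 log2 units above HCC827 and T15-2 was 0.20 above it. Under erlotinib the ER3 level was 4.44 ± 0.12 (SE) log2 units, or 21.7-fold, above that of HCC827. T15-2 was 13.5-fold below ER3 (-3.76 ± 0.12) and 0.68 ± 0.12 log2 units above HCC827. No p is given for these differences, because LUM had been chosen on differences between the lines in DMSO. Without background correction the 3 log2 differences were 3.42, -3.05 and 0.37. The HCC827 arrays with erlotinib were dim, where the lowest values above background were 4.82 to 4.86. Adjusted p-values below are limma's over all 19931 tested probes, with n = 3 arrays per group.

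The other LUM probe was near background throughout and showed a much smaller difference. LUM probe 2 (ILMN_2167805) read 4.85, 5.03 and 4.74 in ER3 with DMSO and 5.43, 4.79 and 5.38 with erlotinib. It read 4.41 to 4.60 in HCC827 with DMSO, 4.45 to 4.73 in HCC827 with erlotinib and 4.54 to 4.77 over the T15-2 arrays. Only 3 of the 18 arrays were above background, 1 of ER3 with DMSO and 2 of ER3 with erlotinib, which is the fewest the filter allowed. Under erlotinib the probe was at least 1.28-fold higher in ER3 than in HCC827 and at least 1.27-fold lower in T15-2 than in ER3. No p is given, because the probe was tested only where ER3 was high. Both probes thus put ER3 highest, and they disagreed on the size of the difference. Over the 18 arrays their levels correlated at r = 0.78, and at r = 0.51 once group means were removed, a description over arrays that share groups. Probe sequences were not used here, so the transcripts each probe reads were not compared.

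**Figure D1:**
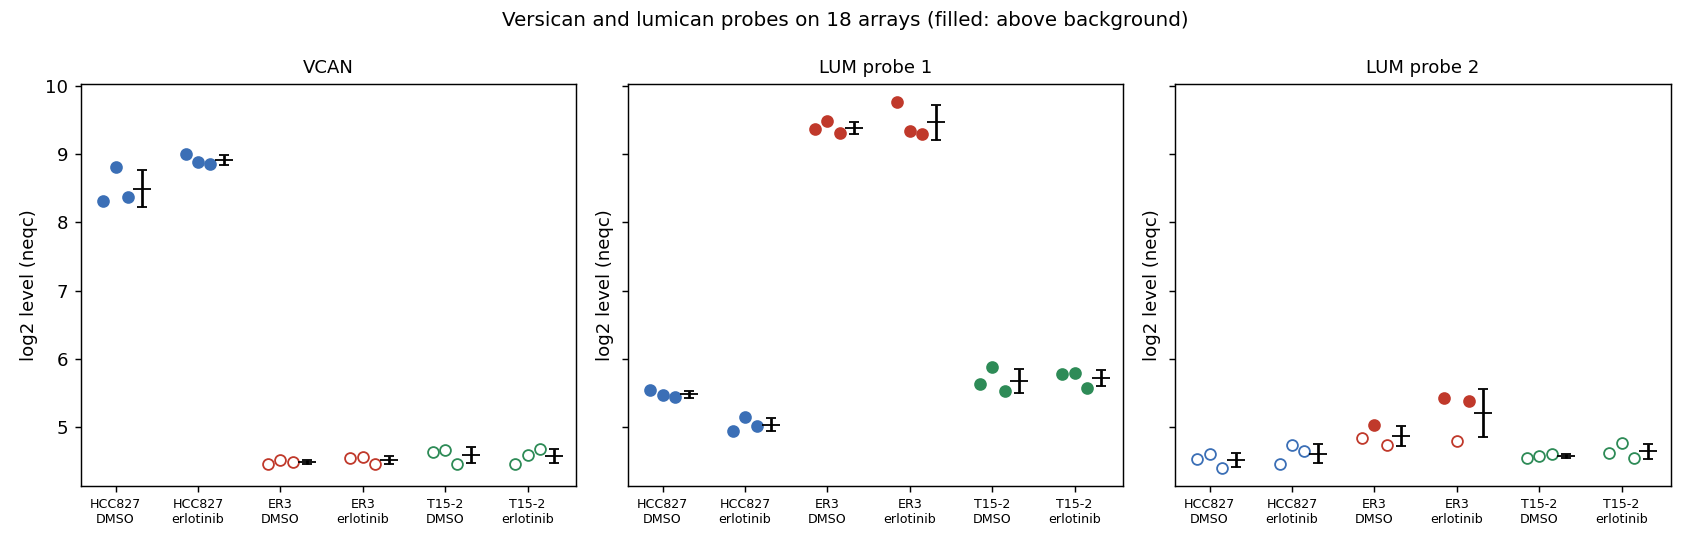
Log2 level of the VCAN probe and of both LUM probes on each of the 18 arrays by group, with the mean and SD of each group; filled points were above background. VCAN was above background only on the 6 HCC827 arrays, and LUM probe 1 was above 9 on the 6 ER3 arrays and below 6 on the others.

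The other small leucine-rich members, decorin and biglycan, were low. Biglycan carries chondroitin or dermatan sulfate, and its probe (ILMN_2206746) was above background on 18 of 18 arrays. HCC827 read 5.97, 6.08 and 6.22 with DMSO and 6.33, 6.30 and 6.06 with erlotinib. ER3 read 5.43, 5.44 and 5.16, then 5.46, 5.49 and 5.11, and T15-2 read 5.22, 5.11 and 5.26, then 5.22, 5.10 and 5.41. All 6 HCC827 arrays lay above all 12 subline arrays. In DMSO the difference from HCC827 was -0.75 log2 units in ER3 and -0.90 in T15-2. Under erlotinib BGN differed from HCC827 by -0.87 ± 0.12 log2 units in ER3, or 1.83-fold lower (adjusted p = 9.1e-06), and by -0.99 ± 0.12 in T15-2 (adjusted p = 2.1e-06). Without background correction these differences were -0.52 and -0.58, both still past the threshold. ER3 and T15-2 differed by -0.11 log2 units, with a 95% interval from -0.37 to 0.14 (adjusted p = 0.57).

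Decorin, a collagen-binding relative of biglycan, was at the limit of detection. DCN probe 1 (ILMN_2347145) was above background on 7 of 18 arrays and never on all 3 of a group, with levels from 4.61 to 5.14. DCN probes 2, 3 and 4 were above background on 0, 1 and 1 arrays. No comparison of lines under erlotinib was called for DCN probe 1, the differences running at -0.05, -0.07 and -0.02 log2 units for ER3 against HCC827, T15-2 against HCC827 and T15-2 against ER3.

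Among the cell surface members, syndecan-1, the main syndecan of epithelial cells, was bright on every array. SDC1 probe 1 (ILMN_1815308) read 10.44, 10.18 and 10.30 in HCC827 with DMSO and 9.56, 9.61 and 9.34 with erlotinib. ER3 read 9.78, 9.82 and 9.58, then 9.68, 9.70 and 9.54. T15-2 read 9.27, 9.50 and 9.25, then 9.01, 9.17 and 8.99. HCC827 with DMSO was above every other array, and T15-2 with erlotinib was below every other array. In DMSO the difference from HCC827 was -0.58 log2 units in ER3 and -0.97 in T15-2. Under erlotinib ER3 and HCC827 overlapped, with a difference of 0.13 and a 95% interval from -0.09 to 0.36 (adjusted p = 0.36). T15-2 lay below both, with a difference of -0.45 ± 0.11 log2 units from HCC827 (adjusted p = 0.0023) and -0.58 ± 0.11 from ER3 (adjusted p = 0.00045). With arrays scaled to the median of all probes instead, the T15-2 difference from HCC827 was -0.24 (adjusted p = 0.28). Epithelial markers moved in the same comparison: all 8 measured were lower in T15-2 than in ER3 under erlotinib, with summed signals of 14304 to 16553 against 21996 to 25856, and their part in the SDC1 difference was not tested. SDC1 probe 2 (ILMN_1800038) was above background on 1 array and probe 3 (ILMN_1768953) on 0.

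Syndecan-4, a syndecan of focal adhesions, was also bright on every array. Its probe (ILMN_1663042) read 8.96, 9.16 and 9.12 in HCC827 with DMSO and 9.49, 9.48 and 9.35 with erlotinib. ER3 read 8.70, 8.98 and 8.80, then 8.92, 8.71 and 8.91, and T15-2 read 8.84, 8.79 and 8.95, then 8.76, 8.89 and 8.91. The 3 HCC827 arrays with erlotinib were above all others. In DMSO the sublines were at -0.26 (ER3) and -0.22 (T15-2) log2 units from HCC827. Under erlotinib both were at -0.59 ± 0.10, with an adjusted p of 7.0e-05 for ER3 and 7.5e-05 for T15-2, and their own difference was 0.00 ± 0.10 (adjusted p = 0.99). Scaling arrays to the median of all probes left the T15-2 difference at -0.38 (adjusted p = 0.079). SDC2, syndecan-2, was above background on 0 of 18 arrays, with levels from 4.34 to 4.61.

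Glypican-1, anchored to the membrane by a lipid, and perlecan were close to background. GPC1 (ILMN_1801516) was above background on 13 of 18 arrays and read 5.32, 5.55 and 5.71 in HCC827 with DMSO and 5.13, 5.12 and 5.38 with erlotinib. ER3 read 4.95, 4.92 and 5.01, then 4.77, 4.65 and 4.96, and T15-2 read 5.24, 4.93 and 4.86, then 4.76, 5.20 and 4.74. HCC827 and ER3 did not overlap under either treatment. The ER3 difference from HCC827 under erlotinib was -0.42 ± 0.14 log2 units (adjusted p = 0.020), and the call was lost without any 1 of 3 arrays, ER3 with erlotinib replicate 1 or 2 or HCC827 with erlotinib replicate 3 (largest adjusted p = 0.10). The T15-2 difference was -0.31 ± 0.14 (adjusted p = 0.083). HSPG2 (ILMN_1787548) was above background on 3 of 18 arrays, 2 of ER3 and 1 of T15-2, all with erlotinib, and its levels ran from 4.55 to 5.15 with no line comparison called.

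**Figure D2:**
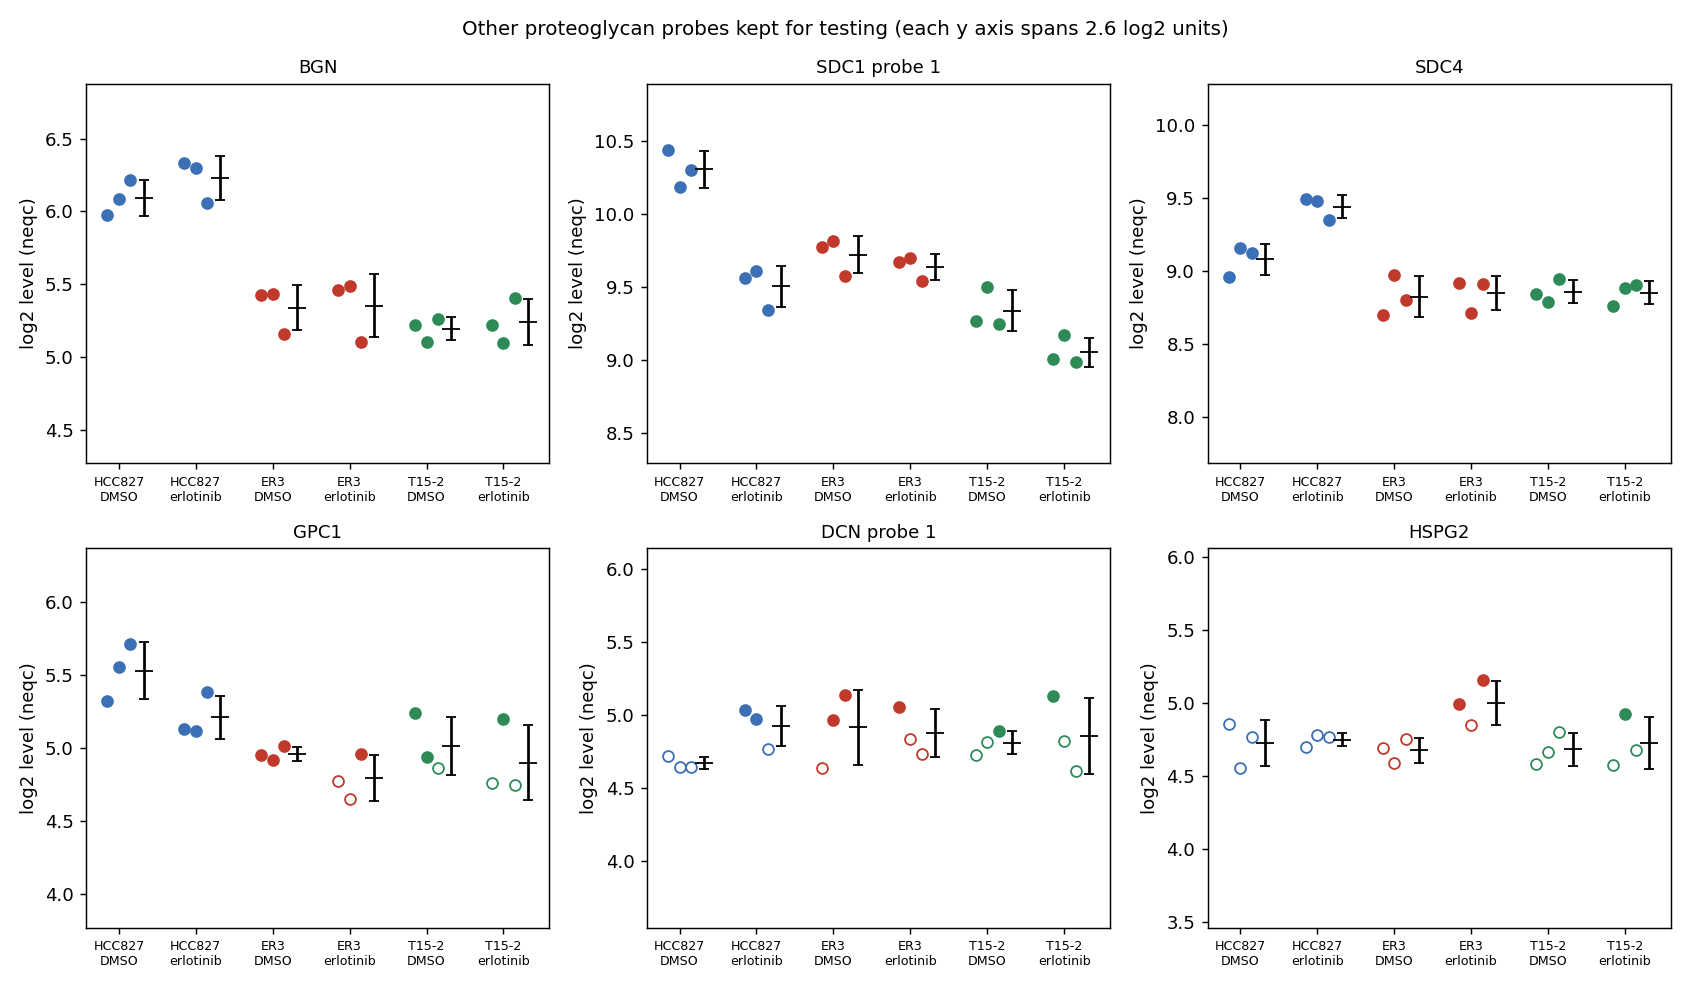
Log2 level of the 6 other tested member probes on each of the 18 arrays by group, with the mean and SD of each group; filled points were above background. BGN was highest on the 6 HCC827 arrays, SDC1 was highest in HCC827 with DMSO, and DCN and HSPG2 lay near background in all groups.

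Counted over the 9 tested probes, 6 were called between ER3 and HCC827 under erlotinib, 2 higher and 4 lower in ER3, against 37.6% of all tested probes. Between T15-2 and HCC827, 5 were called, 1 higher and 4 lower, against 36.1%. Between T15-2 and ER3, 3 were called, all lower in T15-2, against 23.7%. VCAN, BGN and SDC4 were lower in each subline than in HCC827, and LUM probe 1 was higher in each. VCAN and LUM probe 2 are in these counts and had to differ, since each passed the filter only through the line where it was high. LUM probe 1 is in them too, from a gene chosen on differences between the lines in DMSO. The 9 probes are not independent, since LUM has 2 of them.

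**Figure D3:**
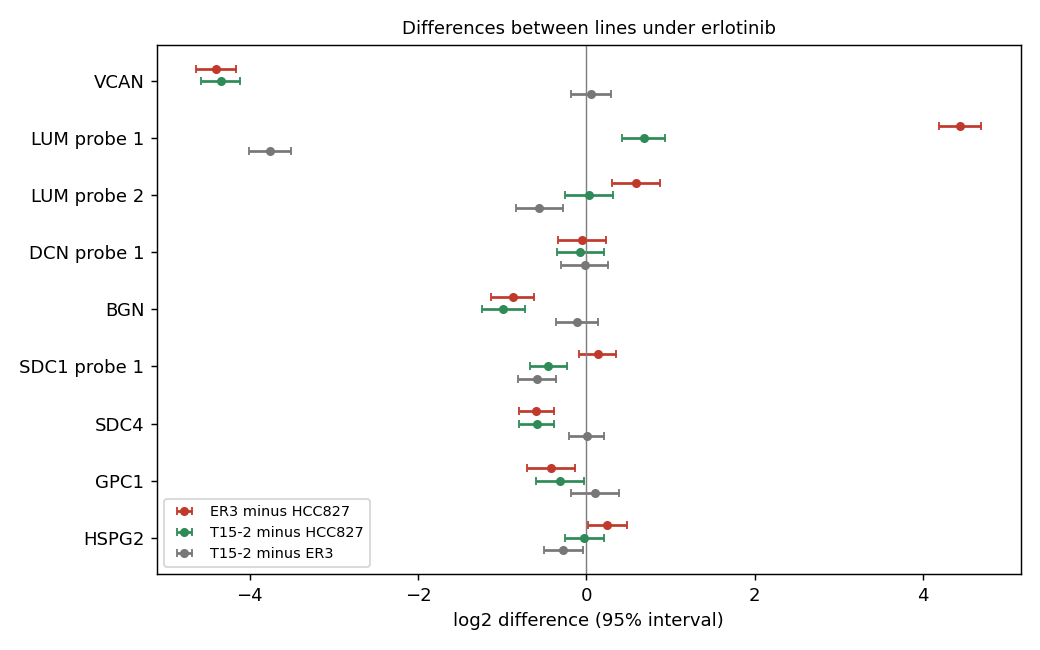
Log2 difference between lines under erlotinib for the 9 tested member probes, with 95% intervals that are not adjusted for the number of probes. LUM probe 1 lay at 4.44 in ER3 and 0.68 in T15-2 against HCC827. The points of VCAN and LUM probe 2 set measured means against groups below background, where only a bound can be read, such as 16.7-fold for VCAN in ER3.

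Erlotinib changed 4 of the 9 member probes in HCC827, against 31% of all tested probes, 2 higher and 2 lower. SDC1 fell most, by 0.80 log2 units ± 0.11 or 1.75-fold (adjusted p = 8.6e-06), and LUM probe 1 had a difference of -0.45 ± 0.12 (adjusted p = 0.0069). VCAN rose by 0.42 ± 0.11 (adjusted p = 0.0068) and SDC4 by 0.36 ± 0.10 (adjusted p = 0.0077). In each of these the 3 erlotinib arrays did not overlap the 3 DMSO arrays. For VCAN and LUM the DMSO arrays entered the choice of the gene, so their p-values are not independent of it. The SDC1 call held under every alternative run. With arrays scaled to the median of the tested probes, VCAN was at 0.30 (adjusted p = 0.095) and SDC4 at 0.24 (adjusted p = 0.11), and scaled to the median of all probes they were at 0.19 (adjusted p = 0.36) and 0.14 (adjusted p = 0.61). The VCAN call was also lost without HCC827 with DMSO replicate 1 (0.33, adjusted p = 0.051), and the LUM call without background correction (-0.24, adjusted p = 0.052). BGN was at 0.14 with a 95% interval from -0.12 to 0.39 (adjusted p = 0.44), DCN probe 1 at 0.26 (adjusted p = 0.16) and GPC1 at -0.32 (adjusted p = 0.083). LUM probe 2 and HSPG2 were below background on all HCC827 arrays. Their differences of 0.10 and 0.02 cannot show whether they changed.

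In ER3, erlotinib gave 0 calls among the 9 probes by limma, against 2.37% of all tested probes. LUM probe 1, the member highest there relative to the other lines, was at 0.09 with a 95% interval from -0.17 to 0.34 (adjusted p = 0.76), and SDC1 was at -0.09 with an interval from -0.31 to 0.14 (adjusted p = 0.72). HSPG2 was at 0.32 ± 0.11 and LUM probe 2 at 0.33 ± 0.14, the latter at 0.53 without ER3 with erlotinib replicate 2. No p is given for either. Each passed the filter through 3 arrays, of which 2 were ER3 with erlotinib. In T15-2, 0 of 9 were called by limma against 5.68% of all probes. SDC1 was at -0.29 ± 0.11 there (95% interval -0.51 to -0.06, adjusted p = 0.13), and its groups did not overlap. SDC4 was at 0.02 in ER3 (adjusted p = 0.93) and -0.01 in T15-2 (adjusted p = 0.98).

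The response itself differed from that of HCC827 for 2 probes in ER3, against 17.3% of all tested probes, and for 1 probe in T15-2, against 9.97%. For SDC1 the ER3 response was 0.72 ± 0.15 log2 units above that of HCC827 (95% interval 0.40 to 1.03, adjusted p = 0.0028), and the T15-2 response was 0.52 ± 0.15 above it (adjusted p = 0.034). The T15-2 difference was lost without any 1 of 7 arrays (largest adjusted p = 0.10): HCC827 with DMSO replicate 1 or 3, HCC827 with erlotinib replicate 3, T15-2 with DMSO replicate 1 or 3, or T15-2 with erlotinib replicate 1 or 2. For LUM probe 1 the ER3 response was 0.53 ± 0.17 above that of HCC827 (adjusted p = 0.036). This contrast uses the DMSO arrays on which LUM was chosen, so its p is not independent of that choice. The call was lost under 12 of 29 alternatives. No background correction and the authors' processed values each gave 0.32 (adjusted p = 0.093), scaling to the median of the tested probes gave 0.48 (adjusted p = 0.081) and no filter on dim probes gave an adjusted p of 0.059. Leaving out any 1 of 8 arrays also ended the call (largest adjusted p = 0.10): HCC827 with DMSO replicate 1, 2 or 3, HCC827 with erlotinib replicate 1 or 3, ER3 with DMSO replicate 1 or 3, or ER3 with erlotinib replicate 1. The VCAN response differences were -0.39 ± 0.16 in ER3 and -0.43 ± 0.16 in T15-2. No p is given, because VCAN was below background in both sublines, so these differences mostly restate its change in HCC827. Without HCC827 with DMSO replicate 2 they were -0.54 and -0.59. The SDC4 differences were -0.34 ± 0.14 and -0.37 ± 0.14, with an adjusted p of 0.10 for each. The responses share the HCC827 arrays, so these 2 sets of differences are not independent.

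**Figure D4:**
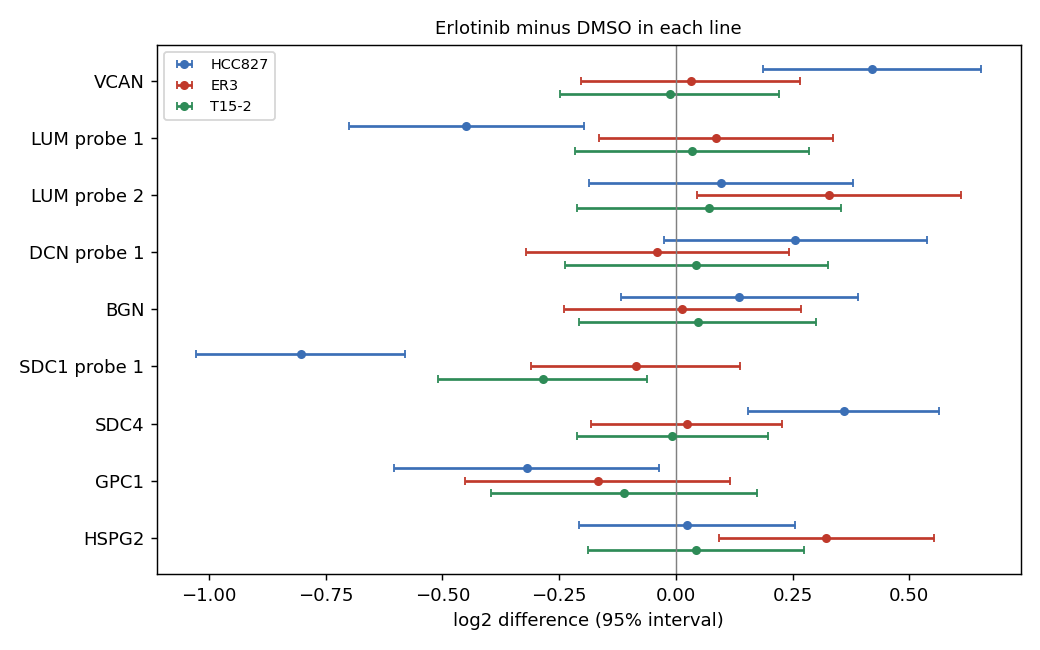
Log2 difference between erlotinib and DMSO in each line for the 9 tested member probes, with 95% intervals that are not adjusted for the number of probes. In HCC827 SDC1 lay at -0.80 and LUM probe 1 at -0.45, while VCAN at 0.42 and SDC4 at 0.36 lay above 0.

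Other genes of the proteoglycan pathway were read from 8 lists of 117 genes, of which 75 were measured. Under erlotinib 29 of the 75 were called between ER3 and HCC827, 20 higher and 9 lower in ER3, a share of 38.7% against 42.9% of all genes. Between T15-2 and HCC827, 26 were called, 16 higher and 10 lower (34.7% against 41.1%), and between T15-2 and ER3, 20 were called, 13 higher and 7 lower (26.7% against 27.4%). Erlotinib changed 21 of them in HCC827, 6 higher and 15 lower (28% against 35.9%), and 1 in ER3 (2.68% of all genes) and 3 in T15-2 (6.68%). Over all genes 18.3% were higher and 17.6% lower with erlotinib in HCC827. In ER3 against HCC827, 20.9% of all genes were higher and 22.1% lower, in T15-2 against HCC827 21.2% and 19.9%, and in T15-2 against ER3 14.7% and 12.7%. The shares called were below those over all genes in each of the 4 comparisons.

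The enzymes that cleave matrix proteoglycans and their chains held the widest differences between lines. Under erlotinib HPSE, heparanase, which cuts heparan sulfate, was lower in both sublines than in HCC827. It was at -1.56 ± 0.13 log2 units in ER3 (adjusted p = 5.4e-09), with -1.54 at its other probe. In T15-2 it was at -0.61 ± 0.13 (adjusted p = 0.00069), with -0.33 at the other probe. In DMSO the HPSE differences were -0.85 in ER3 and -0.24 in T15-2. ADAMTS1, a protease that cleaves versican and aggrecan, was 1.56 ± 0.14 above HCC827 in ER3 (adjusted p = 3.6e-08) and 1.20 ± 0.14 above it in T15-2 (adjusted p = 1.4e-06). It was above background on 1 of 3 HCC827 erlotinib arrays, and without background correction the differences were 0.96 and 0.73. In DMSO they were 0.93 and 0.47. In HCC827, erlotinib raised HPSE by 0.84 ± 0.13 (adjusted p = 3.2e-05), and ADAMTS9, a relative of ADAMTS1, was at -0.71 ± 0.10 (adjusted p = 1.6e-05), or -0.43 without background correction. Of the 9 measured genes of this list, 3 were called between ER3 and HCC827 under erlotinib, 1 higher and 2 lower, against 42.9% of all genes. Between T15-2 and HCC827, 5 were called, 2 higher and 3 lower, against 41.1%.

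Genes of hyaluronan, the sugar chain that versican binds, were called in 1 direction against HCC827 under erlotinib. Of 7 measured, 5 were called higher and 0 lower in ER3 than in HCC827, against 20.9% and 22.1% of all genes. The list median was 0.32 against -0.01 over all genes. In T15-2, 4 were higher and 0 lower, against 21.2% and 19.9%, with a median of 0.27 against 0.01. Both counts include CEMIP. In the T15-2 comparison CEMIP was below background in both groups, and in the ER3 comparison it was below background in HCC827. The ER3 count also includes HMMR at 0.33 ± 0.12 (adjusted p = 0.043), a call lost under 9 alternatives, with 0.02 at its other probe. CD44, the main hyaluronan receptor, was higher in T15-2 than in HCC827 by 1.06 ± 0.12 log2 units (adjusted p = 6.7e-07), with 1.41 and 0.90 at its other probes. CEMIP, which takes part in hyaluronan breakdown, was at least 1.49-fold higher in ER3 than in HCC827 and at least 1.48-fold lower in T15-2 than in ER3. No p is given for these bounds, because CEMIP was above background only in ER3 among the lines with erlotinib. HAS3, a hyaluronan synthase, was lowered by erlotinib in HCC827 (-1.43 ± 0.12, adjusted p = 4.2e-08), with -0.30 at its other probe. In that comparison 3 of the 7 were called, all lower, against 17.6% of all genes lower. In DMSO the CD44 difference from HCC827 was 0.48 in T15-2 and -0.09 in ER3. The ER3 differences of CEMIP and HMMR in DMSO were 0.51 and 0.13. HAS3 and HYAL2, another gene of the list, were called higher in T15-2 than in HCC827 under erlotinib. HAS3 was at 0.58 there, with only 0.09 at its other probe. In DMSO the HAS3 and HYAL2 differences were -0.36 and 0.43.

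Of the enzymes that build the chains, 15 were measured in the list of linkage and chain synthesis. With erlotinib in HCC827, 6 were called lower, 1 higher and 8 not, where 17.6% of all genes were lower and 18.3% higher. The list median was -0.26 against 0.01 over all genes. CHSY1, a chondroitin synthase, was at -0.97 ± 0.10 (adjusted p = 3.2e-07) and B3GALT6, which adds a galactose of the linkage region, at -0.52 ± 0.10 (adjusted p = 0.00059). EXT1, which extends heparan sulfate, rose by 0.63 ± 0.10 (adjusted p = 5.4e-05), or 0.40 with scaling to the median of all probes. Between lines under erlotinib B3GALT6 was higher in T15-2 than in HCC827 by 0.95 ± 0.10 (adjusted p = 4.0e-07), and EXT1 differed by -0.51 ± 0.10 in ER3 (adjusted p = 0.00035). In DMSO these differences were 0.58 and -0.02. In all, 5 of the 15 were higher and 3 lower in ER3 than in HCC827, against 20.9% and 22.1% of all genes. In T15-2, 3 were higher and 0 lower, against 21.2% and 19.9%.

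Among 23 measured genes that sulfate or epimerise the chains, 10 were called between ER3 and HCC827 under erlotinib, against 42.9% of all genes. Of these, 7 were higher and 3 lower in ER3. Between T15-2 and HCC827, 8 were called, 3 higher and 5 lower, against 41.1% of all genes. PAPSS2, which makes the sulfate donor, was at -0.88 ± 0.10 in ER3 against HCC827 (adjusted p = 5.7e-07). CHST15, a chondroitin sulfotransferase, was lower in T15-2 than in ER3, at -1.09 ± 0.10 (adjusted p = 5.7e-08). DSE, which turns chondroitin into dermatan sulfate, was higher in ER3 than in HCC827 by 0.72 ± 0.11 (adjusted p = 2.5e-05). In DMSO the PAPSS2, CHST15 and DSE differences were -0.62, -1.13 and 0.79. Erlotinib in HCC827 gave 3 higher and 3 lower calls in this list, against 18.3% and 17.6% of all genes.

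Other core proteins were compared between the lines under erlotinib, where 42.9% of all genes were called between ER3 and HCC827 and 41.1% between T15-2 and HCC827. Of 5 measured hyalectans and link proteins, 0 were called between ER3 and HCC827 and 1 between T15-2 and HCC827, and of 5 other small leucine-rich proteoglycans the counts were 0 and 1. The latter call was TSKU, tsukushi, at -0.78 ± 0.16 log2 units in T15-2 (adjusted p = 0.00066). The 3 measured syndecans and glypicans outside the members gave 0 calls in either comparison. Among 9 basement membrane and other proteoglycans, 3 were higher and 1 lower in ER3, and 4 were higher and 1 lower in T15-2. Within these, TGFBR3, betaglycan, was at least 1.45-fold lower in ER3, where it was below background, than in HCC827, and no p is given for this bound. NRP1, a co-receptor that can carry a chain, was higher by 0.55 ± 0.10 in ER3 (adjusted p = 0.00014) and 0.64 ± 0.10 in T15-2 (adjusted p = 2.7e-05). In DMSO the NRP1 differences were -0.03 and 0.15. AGRN, agrin, a basement membrane heparan sulfate proteoglycan, was higher in ER3 by 0.49 ± 0.10 (adjusted p = 0.00072).

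**Figure D5:**
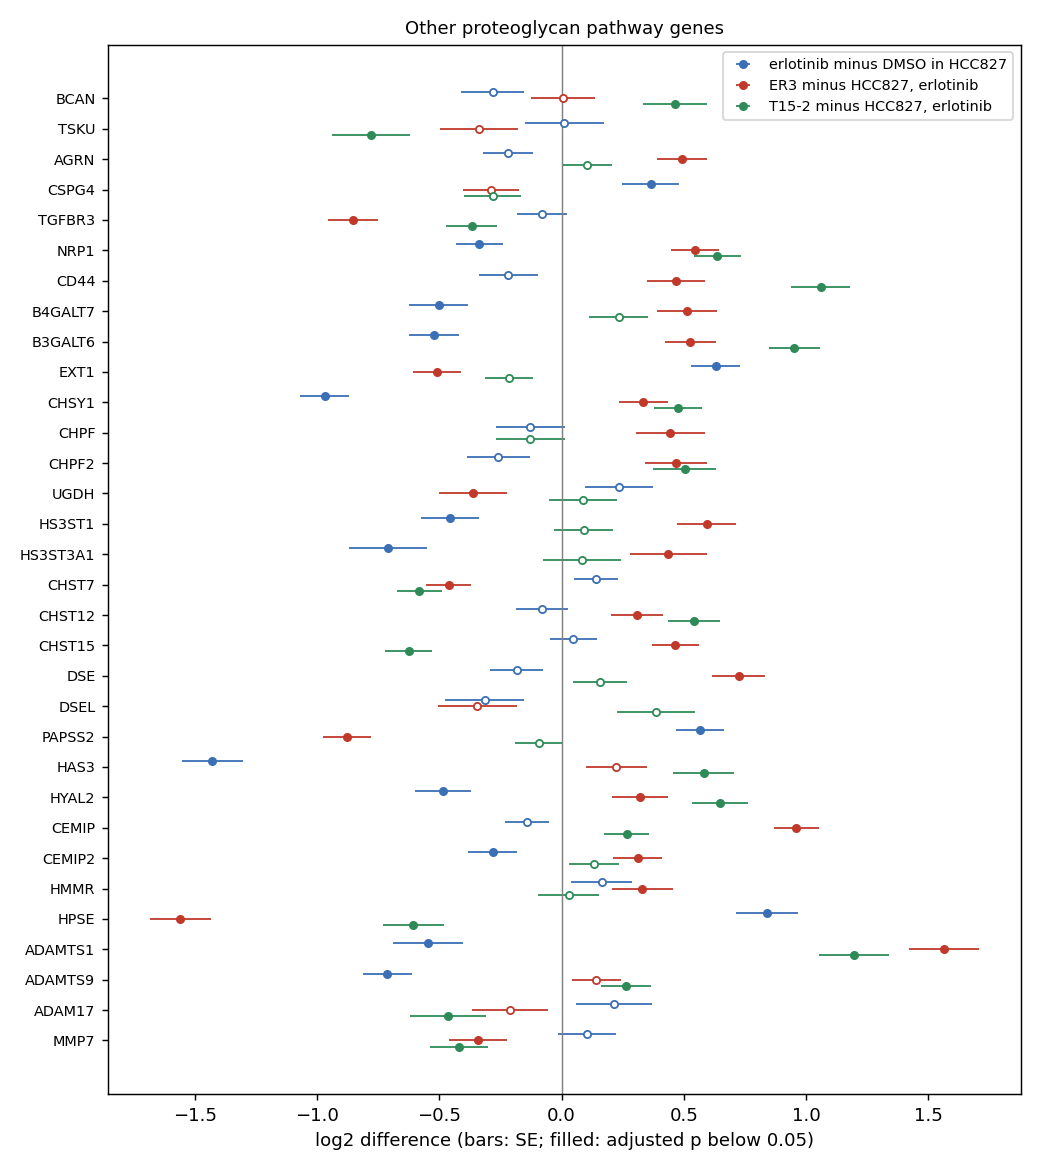
Log2 differences of the named pathway genes outside the members in the HCC827 erlotinib comparison and in both comparisons of sublines with HCC827 under erlotinib; bars are SE and filled points had an adjusted p below 0.05. HPSE reached -1.56 and ADAMTS1 1.56 in ER3, and HAS3 reached -1.43 with erlotinib in HCC827.

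Genes whose 6 group means followed those of VCAN most closely, among 1757 genes whose group means spanned at least 1 log2 unit, were CEACAM5, IRX5, MOB3B, SH3PXD2A and LRCH2, with Pearson r from 0.999 to 1.00. CEACAM5, for example, had group means of 6.27 and 6.39 in HCC827 and from 4.50 to 4.59 in the sublines. The 6 points amount to HCC827 against groups at or near background. For LUM probe 1 the closest were PXYLP1 (r = 0.996), TFF2 (0.994), APOBEC3G (0.991), CAMK2N1 (0.990) and VXN (0.989), all highest in ER3. PXYLP1 had group means of 6.99 and 6.92 in ER3 and from 5.32 to 5.71 in the other lines. These correlations describe 6 group means from shared arrays.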

How the data were processed

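Biotin-labelled cRNA of 18 samples was measured on Illumina BeadChips. The deposited signal table holds, for each probe and array, an intensity without normalization and a detection p-value, per the file headers. A second table holds the authors' processed intensity values, whose like distribution on each array is that of quantile normalization. Its array medians were 57.7. The submitters' processing notes name BeadStudio; its version is not stated there. Groups and replicate numbers came from the sample labels.

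Signals were corrected with the normal-exponential model of limma 3.58.1 in R 4.3.3, whose negative-control mean and SD were derived from the detection p-values, with an offset of 16, then quantile-normalized and set on a log2 scale. Of 48803 probes, 19931 had a detection p under 0.05 on 3 or more of the 18 arrays and were kept. Symbols came from the platform annotation, updated through RefSeq (GRCh38.p14): 28093 probes had 1 symbol, 13 several and 20697 none, and 28054 identifiers matched. A pathway gene was represented by its brightest kept probe, over 11820 genes. The limma model held 6 group means over the 18 arrays, and each of 8 contrasts was tested with Benjamini-Hochberg adjustment over kept probes per contrast and calls at an adjusted p below 0.05. Intervals at 95% are not adjusted. Precision is limited by the number of arrays. The code was tested on simulated data.

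The members and lists were chosen with earlier results of these data known. All member probes were named. From each list, up to 3 called genes with the largest change and no overlap between groups were eligible per comparison, and for VCAN and LUM the 5 genes with the closest group means were named; the choice among eligible genes was made with their values in view. Alternatives were no background correction, median scaling, the authors' processed values, other filters on dim probes, a fit with only the compared groups, other eBayes settings, the replicate number as a block and leaving out each array. A fit without the 2 arrays farthest apart on the first within-group component, and median scaling on all probes were added after the data were seen. No source used here says which BeadChip held which array, so chip was not fitted as a block.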

Additional observations from a re-analysis of the deposited data

Results flagged for a closer look

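SDC1 probe 1 differed between lines in its change under erlotinib, by a test of the difference itself. The ER3 response was 0.72 ± 0.15 log2 units above that of HCC827 and the T15-2 response 0.52 ± 0.15 above it, with limma adjusted p-values of 0.0028 and 0.034. For LUM probe 1 the ER3 response was 0.53 ± 0.17 above that of HCC827 (adjusted p = 0.036). That LUM call was lost under 12 of 29 alternatives, down to 0.32 without background correction, and the T15-2 call of SDC1 was lost without any 1 of 7 arrays. All 3 differences share the HCC827 arrays, and the LUM contrast uses the DMSO arrays on which that gene was chosen. Under erlotinib LUM probe 1 was 4.44 log2 units higher in ER3 than in HCC827, and LUM probe 2 at least 1.28-fold higher; why they differ was not tested.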

How the results depend on the processing

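No member or pathway result reversed. Of 2048 member values under the alternatives, 2002 kept their direction and side of the threshold or differed with no call, 31 lost a call and 15 gained one. For BGN the calls between sublines and HCC827 under erlotinib held in every alternative run. LUM probe 1 kept its direction there, at 3.42 to 4.52 log2 units in ER3 and 0.37 to 0.75 in T15-2. That is a description, because LUM had been chosen on differences between the lines. The number of members whose response differed between ER3 and HCC827 was 1 in place of 2 without background correction, with median scaling, with the authors' processed values and with no filter on dim probes. For T15-2 against HCC827 it was 2 in place of 1 in a fit with only the compared groups and without both end arrays, ER3 with DMSO replicate 2 and T15-2 with erlotinib replicate 3. With median scaling on all probes, erlotinib in HCC827 gave 2 member calls in place of 4, and T15-2 against HCC827 under erlotinib gave 3 in place of 5. Leaving out each array gave 4 to 4 member calls for erlotinib in HCC827, 0 to 1 in ER3 and 0 to 0 in T15-2. It gave 5 to 6 calls for ER3 against HCC827, 5 to 6 for T15-2 against HCC827 and 3 to 4 for T15-2 against ER3 under erlotinib. The response differences gave 1 to 2 calls in ER3 and 0 to 2 in T15-2. Calls were gained with median scaling for DCN probe 1 with erlotinib in HCC827 (0.39, adjusted p = 0.039) and for GPC1 in T15-2 against HCC827 (-0.39, adjusted p = 0.038). Other gains were GPC1 in that comparison without T15-2 with erlotinib replicate 2, GPC1 with erlotinib in HCC827, LUM probe 2 with erlotinib in ER3, HSPG2 in ER3 against HCC827 and T15-2 against ER3, both VCAN response differences, and LUM probe 1 in the T15-2 response difference under 5 alternatives. The VCAN gains rest on sublines below background. The LUM probe 2 and HSPG2 gains rest on probes that passed the filter mainly through ER3 with erlotinib. The cause of the changed calls was not tested.

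Over all probes, calls for erlotinib in ER3 were 472, and ran from 13 in a fit with only those groups to 1020 without both end arrays. In T15-2 they were 1132, with 509 to 1621 under the alternatives, and for the T15-2 response difference 1988, with 1182 to 3150. Median scaling on all probes moved the median of all probes to 0.12 for erlotinib in ER3, and to 0.19 and 0.18 for the ER3 and T15-2 response differences. It called 3396 probes higher and 323 lower in the ER3 response difference, and 1395 higher and 3633 lower for erlotinib in HCC827. The T15-2 response difference was 2199 higher and 179 lower, and erlotinib gave 341 and 14 in ER3 and 516 and 95 in T15-2. SDC1 remained called under it in both response differences, at 1.13 and 0.94.

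Same-numbered samples did not deviate together, with 5 of 45 pairs over a correlation of 0.1 and a median of -0.03, so the numbers give no pairing. With the replicate number as a block the member calls were 4, 0 and 0 for erlotinib in HCC827, ER3 and T15-2, 6, 5 and 3 between lines under erlotinib, and 2 and 1 for the response differences, the same counts as without it.

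Probes near background limit what can be read for LUM probe 2, DCN, GPC1 and HSPG2. LUM probe 1 in HCC827 with erlotinib, at 4.95 to 5.14, and BGN in the sublines, at 5.10 to 5.49, were above background but dim. The LUM probe 1 fold against HCC827, its change with erlotinib there and its response difference rest on such values.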
